A study of Mus musculus with 4 samples.

Results

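The regions described here are shared distal regions inside gene bodies: stretches of the mouse genome that carried a peak of H3K27ac in both of 2 libraries of liver sinusoidal endothelial cells (LSECs), lay far from gene ends, and fell within a protein-coding gene. To find them, the peaks of both libraries were pooled, overlapping peaks were merged, and a merged region was kept where each library gave it a peak. A region was called distal where it lay more than 2.5 kb from both ends of every protein-coding gene, and intragenic where its midpoint fell between the ends of one. This gave 8048 regions, which were 58.9% of the 13673 shared distal regions, 33.3% of the 24199 shared regions and 12.5% of the 64629 regions found in either library. The other shared distal regions, 5625 in number, lay between protein-coding genes, and 10526 shared regions lay within 2.5 kb of a gene end.

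The libraries were H3K27ac chromatin immunoprecipitations from primary mouse LSECs. The study's general protocol took LSECs from perfused livers with magnetic beads against CD146 and cultured them for some hours. Its methods for this immunoprecipitation name isolation and cross-linking and do not mention the culture. The study asked where enhancers of collagen IV genes may lie in these cells. The sources used here give neither the genotype, the treatment nor the sex of the mice behind the libraries, and the study took LSECs from mice with 1 floxed Col4a1 allele (Col4a1 fl/wt), with or without the endothelial Cdh5 CreERT2, and from mice that joined this CreERT2 to a dCas9-KRAB allele. The samples formed 1 condition with 2 libraries, replicate 2 and replicate 3, so no condition was compared with another, and values are given for each library side by side without a test.

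Acetylation of lysine 27 on histone H3 is laid down by the acetyltransferases p300 and CBP and is found at active promoters and active enhancers. An enhancer inside a gene body may act on that gene or on a neighbour, and the mark alone does not tell an enhancer from a promoter that starts a shorter transcript within the gene. LSECs are the fenestrated endothelium of the liver, known for scavenger receptors, for a sparse basement membrane and for transcription factors of the ETS and GATA families.

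Some of the regions held an annotated transcript start. RefSeq promoter windows on GRCm38.p6 covered 17491 of the 21770 protein-coding genes (80.3%) and gave 2845 starts that were themselves intragenic and more than 2.5 kb from every gene end. Of these internal starts, 669 (23.5%) lay inside a shared distal region, 185 (6.50%) inside a peak of replicate 3 only, 72 inside another shared region, and 1919 (67.5%) outside every peak. The sequences below run from 200 bases before such a start through its first 30 bases, on the strand of the gene, with CpG dinucleotides in capitals. The first 5 come from regions taller than 3 in 4 of the shared distal regions and were chosen to show windows dense in CpG.
Hdac4, chr1:92180312-92180541, minus strand: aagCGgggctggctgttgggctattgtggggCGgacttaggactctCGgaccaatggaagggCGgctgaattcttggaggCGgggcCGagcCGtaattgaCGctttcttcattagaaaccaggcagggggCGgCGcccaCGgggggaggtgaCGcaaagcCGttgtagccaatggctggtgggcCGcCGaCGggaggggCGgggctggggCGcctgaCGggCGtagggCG
Por, chr5:135688945-135689174, plus strand: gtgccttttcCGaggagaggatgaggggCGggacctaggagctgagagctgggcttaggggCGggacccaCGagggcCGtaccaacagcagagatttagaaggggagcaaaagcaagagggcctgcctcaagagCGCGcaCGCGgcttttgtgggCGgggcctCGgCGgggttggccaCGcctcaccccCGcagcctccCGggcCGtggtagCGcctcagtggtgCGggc
Rps6ka2, chr17:7169915-7170144, plus strand: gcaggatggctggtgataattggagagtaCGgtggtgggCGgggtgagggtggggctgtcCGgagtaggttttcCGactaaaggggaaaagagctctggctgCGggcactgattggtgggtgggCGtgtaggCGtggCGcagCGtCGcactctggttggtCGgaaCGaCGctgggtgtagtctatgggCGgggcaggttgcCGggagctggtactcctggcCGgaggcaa
Dab2, chr15:6386548-6386777, plus strand: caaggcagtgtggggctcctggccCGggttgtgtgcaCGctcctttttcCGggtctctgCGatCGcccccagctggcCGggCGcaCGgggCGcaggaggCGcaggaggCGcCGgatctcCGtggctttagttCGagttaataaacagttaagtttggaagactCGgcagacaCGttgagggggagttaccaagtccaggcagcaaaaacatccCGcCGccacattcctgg
Rbpj, chr5:53590146-53590375, plus strand: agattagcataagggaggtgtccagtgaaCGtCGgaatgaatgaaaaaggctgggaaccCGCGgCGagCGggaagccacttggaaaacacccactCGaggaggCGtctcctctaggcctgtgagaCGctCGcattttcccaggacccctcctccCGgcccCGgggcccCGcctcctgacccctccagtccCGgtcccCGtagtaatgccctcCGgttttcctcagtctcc
The next 3 come from regions in genes of endothelial identity or lipid uptake and were chosen to show windows poor in CpG.
Erg, chr16:95459319-95459548, minus strand: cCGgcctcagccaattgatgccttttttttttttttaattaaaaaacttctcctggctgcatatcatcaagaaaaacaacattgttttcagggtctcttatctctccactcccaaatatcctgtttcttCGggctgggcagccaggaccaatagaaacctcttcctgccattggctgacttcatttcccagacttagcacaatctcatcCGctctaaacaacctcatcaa
Cd36, chr5:17835867-17836096, minus strand: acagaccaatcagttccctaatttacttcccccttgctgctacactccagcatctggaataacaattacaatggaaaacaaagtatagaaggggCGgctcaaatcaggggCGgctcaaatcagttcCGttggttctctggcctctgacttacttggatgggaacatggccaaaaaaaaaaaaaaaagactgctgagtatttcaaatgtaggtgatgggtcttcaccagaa
Mef2c, chr13:83573407-83573636, plus strand: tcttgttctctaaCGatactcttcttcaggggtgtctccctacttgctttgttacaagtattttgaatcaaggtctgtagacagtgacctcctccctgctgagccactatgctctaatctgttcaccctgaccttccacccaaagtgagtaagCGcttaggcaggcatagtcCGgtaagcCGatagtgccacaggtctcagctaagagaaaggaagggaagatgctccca

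The stretches of the first set held 21 (Hdac4), 18 (Por), 16 (Rps6ka2), 18 (Dab2) and 16 (Rbpj) CpG in 230 bases, and those of the second held 3 (Erg), 3 (Cd36) and 4 (Mef2c). The Hdac4, Por and Rps6ka2 starts lay in regions of 55.6-fold, 45.4-fold and 42.7-fold enrichment in replicate 2. The Dab2 and Rbpj starts lay in regions of 31.9-fold and 21.0-fold enrichment, and the Erg, Cd36 and Mef2c starts in regions of 11.5-fold, 10.8-fold and 6.10-fold enrichment in that library. Tall regions and dense windows go together in these 8 because they were picked so. A Foxp1 window with 34 CpG and a Cgnl1 window with 26 lay in regions of 8.13-fold and 7.44-fold, and an Arhgef7 window with 2 in one of 15.6-fold. Hdac4 encodes a class IIa histone deacetylase, Por the reductase that feeds electrons to cytochromes P450, Rps6ka2 a ribosomal S6 kinase, and Rbpj the DNA-binding partner of Notch. Dab2 encodes a clathrin adaptor for receptors of the LDL receptor family, Cd36 a receptor for fatty acids and oxidised lipoproteins, and Erg and Mef2c are transcription factors of endothelial cells.

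Over whole windows of 300 bases, the 669 internal starts inside a shared distal region had a median GC content of 62.0%, against 50.7% for the 1919 internal starts outside every peak and 56.3% for all 21237 starts of the table. It was 62.7% for the 8150 starts that lay near a gene end and inside a shared region. Their median ratio of observed to expected CpG was 0.748, against 0.259 outside peaks, 0.567 over all starts and 0.826 at gene ends in a shared region. The letters GGGCGG, the core of the GC box bound by SP and KLF factors, stood on either strand in 64.1% of the windows inside a shared distal region, in 22.0% of those outside peaks, in 46.2% of all windows and in 72.0% of those at gene ends in a shared region. The core GGAAGT of ETS sites was found in 25.7%, 18.8%, 24.8% and 30.7% of the same sets, and another ETS core, GGAAAT, in 17.3%, 17.9%, 16.7% and 14.8%. The core AGATAA of GATA sites was found in 6.13%, 12.8%, 9.65% and 5.12%. Cores of other factors were also rarer inside shared distal regions than outside peaks, AP-1 at 7.03% against 9.02% and SOX at 7.03% against 10.8%. FOX stood at 2.24% against 2.97% and MEF2 at 2.84% against 4.69%. The windows inside shared distal regions were thus richer in CpG and GC boxes than the windows of unmarked internal starts. They were poorer in the GATA, AP-1, SOX, FOX and MEF2 cores. The same held for windows at gene ends in a shared region. This is a description of annotated starts, some of which share a gene. The sets differed in GC content and were not matched for it, and its part in the shares of these cores was not tested.

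Replicate 2 held 26975 peaks and replicate 3 held 64498, and each list was deposited with a fold enrichment at the summit, the height used throughout. The number of reads behind the lists is unknown, and the input libraries were not analysed here. Of 14 marker genes of LSECs listed for the purpose, 13 were long enough to hold a shared distal region and 10 did, where 21.0% of all such genes did. The share was 41.6% for such genes of 50 kb or longer. Some of the markers were long, such as Erg at 227 kb and Stab2 at 167 kb, and others short, such as Lyve1 at 12.3 kb. Of the 14, 9 had a shared peak within 1 kb of a gene end, against 50.3% of all genes that could hold a region. For Clec4g neither was found. Of 58 marker genes of hepatocytes, stellate cells, Kupffer cells, cholangiocytes and lymphocytes, 51 could hold a shared distal region and 6 did, and 6 of the 58 had a shared peak at a gene end. Median lengths by cell type ran from 9.20 kb to 30.5 kb, and these genes were not matched in length to the LSEC markers. Replicate 3 alone gave a further 18484 intragenic distal regions with a median height of 6.20-fold, and replicate 2 alone gave 102 with a median of 5.42-fold, none of which is counted below.

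Distal regions inside gene bodies were lower and narrower than regions at gene ends and much like distal regions between genes. In replicate 2 their height had a median of 8.81-fold, with 25th and 75th percentiles of 6.76 and 13.5 and a maximum of 55.6. In replicate 3 the median was 20.9-fold, the percentiles were 13.4 and 33.9, and the maximum was 164. Distal regions between genes had medians of 9.15-fold and 21.2-fold in the same libraries, and regions at gene ends had medians of 13.6-fold and 39.1-fold. The ranges overlapped widely in both libraries, as the plot of heights by class shows. In replicate 2 the heights moved in steps: 50.1% of the regions had a value within 0.0005 of a whole multiple of 0.678, and the median was 13 such steps, so equal medians of different sets in that library need not mean equal heights.

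**Figure D1:**
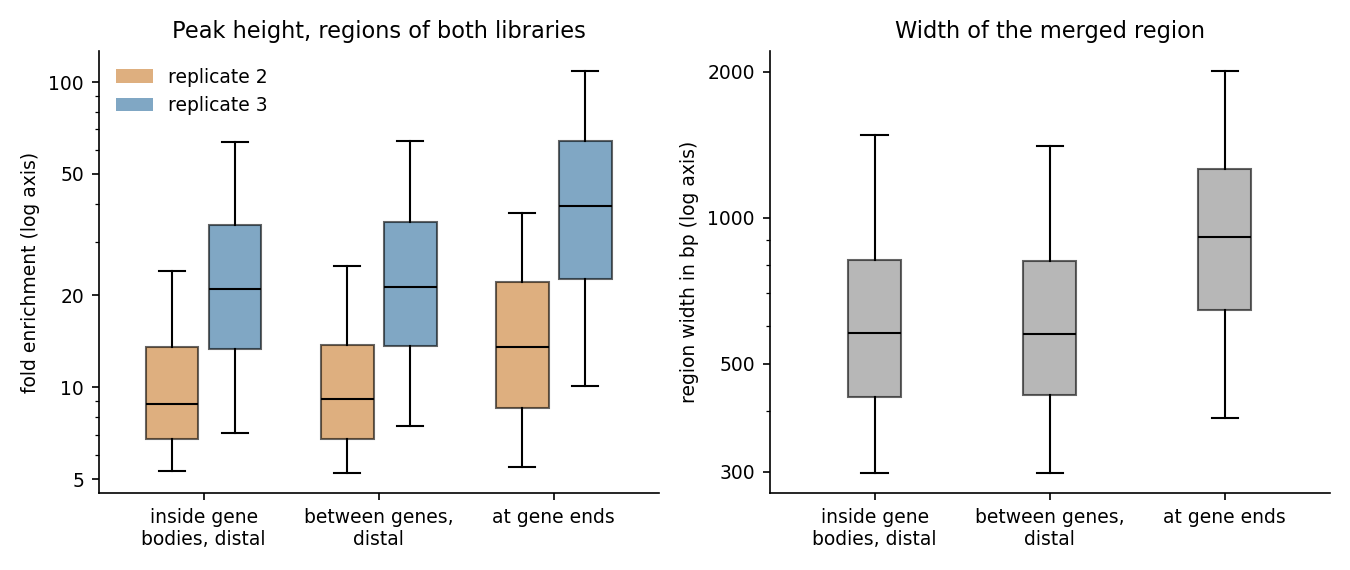
Left, fold enrichment at the summit (log axis) of shared regions by class, replicate 2 in orange and replicate 3 in blue. Right, width of the merged region in bp (log axis). Boxes span the 25th to 75th percentile with the median as a line, and whiskers the 5th to 95th percentile. The boxes of the 8048 distal regions inside gene bodies and of the 5625 between genes cover nearly the same range, and those of the 10526 regions at gene ends sit higher in height and width.

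The median width inside gene bodies was 578 bp, with percentiles of 428 and 820 bp, and 15.8% of the regions were 1 kb or wider. Within these regions the peaks of replicate 2 spanned a median of 288 bp and those of replicate 3 a median of 575 bp. The merged width is thus close to that of replicate 3. Taken from 1 library at a time, intragenic distal regions formed other sets. The 8856 of replicate 2 had a median of 277 bp. The 26568 of replicate 3 had a median of 309 bp and a median height of 7.83-fold. The median width of merged shared regions was 576 bp between genes, where 15.1% reached 1 kb, and 914 bp at gene ends, where 42.7% did. All 8048 regions together covered 5.56 Mb, 0.598% of the gene body sequence that lay more than 2.5 kb from gene ends. Most were simple in shape: 94.1% held 1 peak of replicate 2 and 99.6% held 1 peak of replicate 3.

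Within the kept regions the summits of the libraries lay close together. A region was kept only where peaks of both libraries merged into it, and most peaks were short, so the rule itself limits this distance. The median distance between the highest summits of the libraries was 32 bp, and 90.0% of the regions had summits within 100 bp of each other. Replicate 3 gave the higher value in 95.8% of the regions, with a median ratio of 2.25 to replicate 2, while 341 regions were not higher in replicate 3. Across the 8048 regions, log2 heights of the libraries had a Pearson correlation of 0.782 and a Spearman correlation of 0.770, against 0.859 and 0.878 at the 10526 regions at gene ends. These are correlations across regions of the same pair of libraries, and regions are not independent replicates. The regions sat at a median percentile of height of 42.3 among the peaks of replicate 2 and of 75.9 among the longer list of replicate 3, and regions at gene ends at 66.5 and 87.8.

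**Figure D2:**
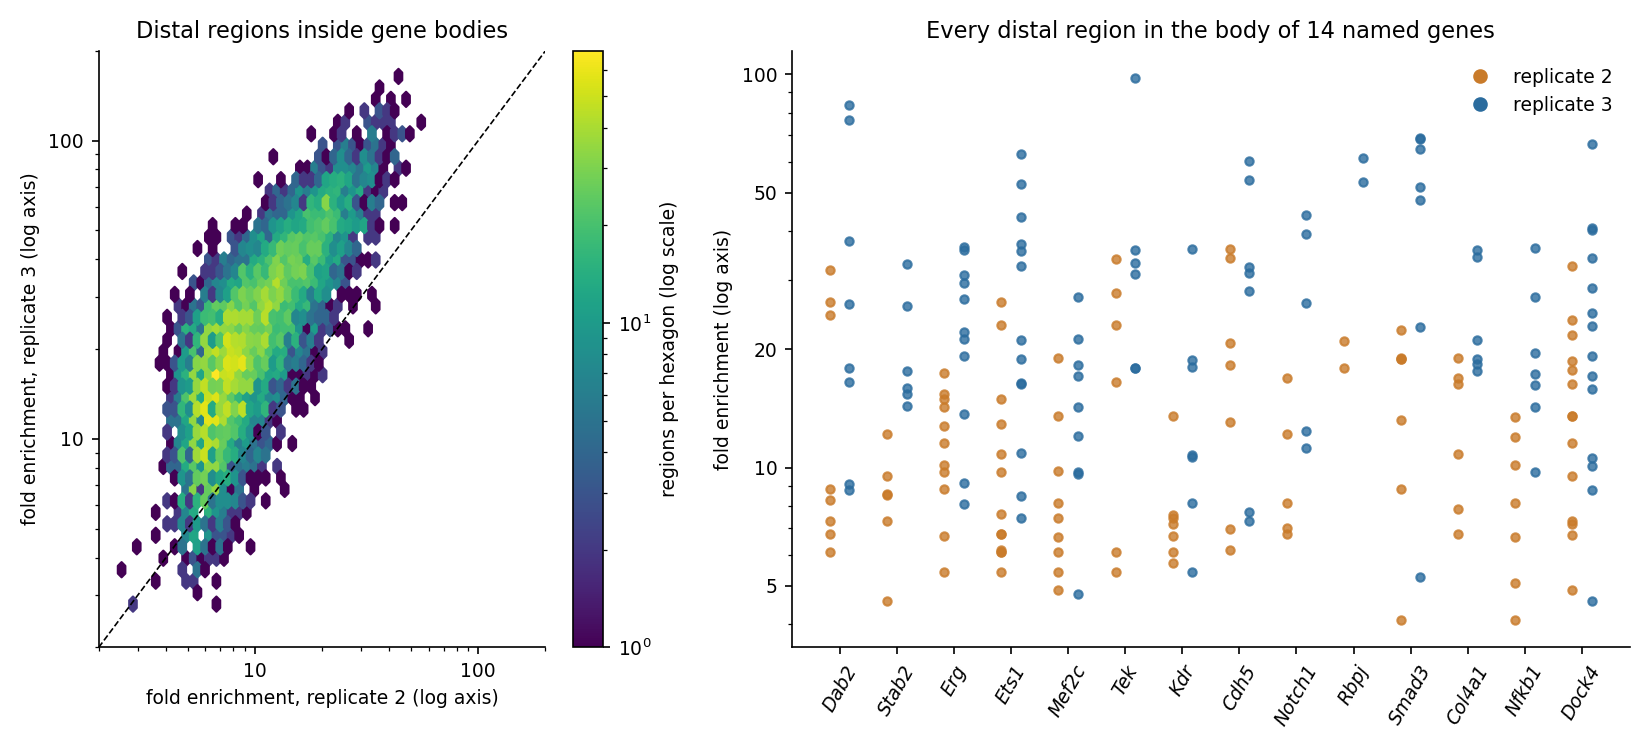
Left, fold enrichment of each distal region inside a gene body in replicate 2 (x) and replicate 3 (y), both on log axes, with shading by the number of regions and a dashed line where both are equal. Right, each region in the body of 14 named genes as a point per library (log axis). Most regions lie above the dashed line, and within a gene such as Tek or Dab2 the regions range from about the lowest heights to 33.9-fold and 31.9-fold in replicate 2.

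Height did not fall away at the distance limit. The regions just inside it lay in Dlgap2 (2506 bp from the nearest gene end, 6.98-fold and 9.69-fold in replicates 2 and 3), Atrx (2515 bp, 4.88-fold and 16.3-fold) and Cs (2521 bp, 11.5-fold and 11.5-fold). Those just outside included regions in Ermap (2500 bp, 14.9-fold and 33.2-fold) and Robo3 (2500 bp, 6.10-fold and 14.7-fold). In replicate 3 the median height was 22.4-fold at 2.5 to 5 kb from the nearest gene end and 20.2-fold beyond 50 kb, and the median width was 626 bp and 559 bp. Of the regions, 432 (5.37%) lay within 1 kb of an end of an annotated gene of another kind, such as a non-coding RNA gene or a pseudogene.

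The regions lay in 3507 genes. Among the 16711 protein-coding genes with any sequence far enough from gene ends to hold such a region, that was 21.0%, and among the 4934 of these genes that were 50 kb or longer, 2051 held one (41.6%). In 1899 of the host genes (54.1%) there was a single region, in 1195 there were 2 to 4, and in 413 there were 5 or more. Those 413 genes held 38.8% of all regions, and 82 genes held 10 or more. Host genes had a median length of 62.6 kb, against 21.4 kb for the genes that could have held a region and did not. Within a gene, neighbouring regions were a median of 9.39 kb apart, and 35.0% of the 4602 gaps were under 5 kb. In 61 cases the midpoint fell in the bodies of a pair of overlapping genes, and the region was counted for both. The counts rest on what is called shared: with a reciprocal overlap of at least 50% between the peaks there were 4142 regions in 2316 genes, and with the peaks of replicate 3 alone 26568 in 6825 genes.

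Genes with the mark at an end held more distal regions inside them. Over the genes that could hold a region, 50.3% had a shared peak within 1 kb of either gene end, and the share was 63.8% among host genes and 46.7% among the others. Per Mb of eligible body there were 13.9 regions in genes with such a peak and 4.90 in genes without. The same order was seen in each class of gene length. For genes of 20 to 50 kb the values were 14.0 and 8.40 per Mb, and for genes of 200 kb or longer they were 12.1 and 2.57 per Mb. Among all other protein-coding genes, including those too short to hold a region, the share was 40.5%. With the reciprocal overlap of 50% the shares fell to 30.1% of host genes and 21.6% of all other protein-coding genes. The regions of host genes without a peak at an end were not lower, with medians of 9.15-fold and 22.5-fold against 8.81-fold and 20.2-fold.

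Within 10 kb of a gene end the regions were denser on the 5′ side of their host genes than on the 3′ side. In the 13337 genes whose strand the promoter table gave, there were 15.7 regions per Mb at 2.5 to 5 kb from the 5′ gene end, 14.4 at 5 to 10 kb, 11.3 at 10 to 20 kb and 5.16 beyond 100 kb. Measured from the 3′ gene end the density was 6.69 per Mb at 2.5 to 5 kb, 9.49 at 5 to 10 kb, 10.4 at 10 to 20 kb and 5.85 beyond 100 kb. Only genes longer than 100 kb reach that last bin, and genes of 200 kb or longer held 5.17 per Mb in all. The bins were not matched in gene length. Host genes of at least 50 kb, with 4720 regions, were also cut into 5 equal parts. From the 5′ to the 3′ end the parts held 22.8%, 23.0%, 19.7%, 19.1% and 15.3% of these regions. Median heights differed less: at 2.5 to 5 kb they were 9.15-fold and 22.5-fold from the 5′ end in replicates 2 and 3 and 8.15-fold and 20.5-fold from the 3′ end, and beyond 100 kb from the 5′ end they were 8.81-fold and 19.5-fold.

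**Figure D3:**
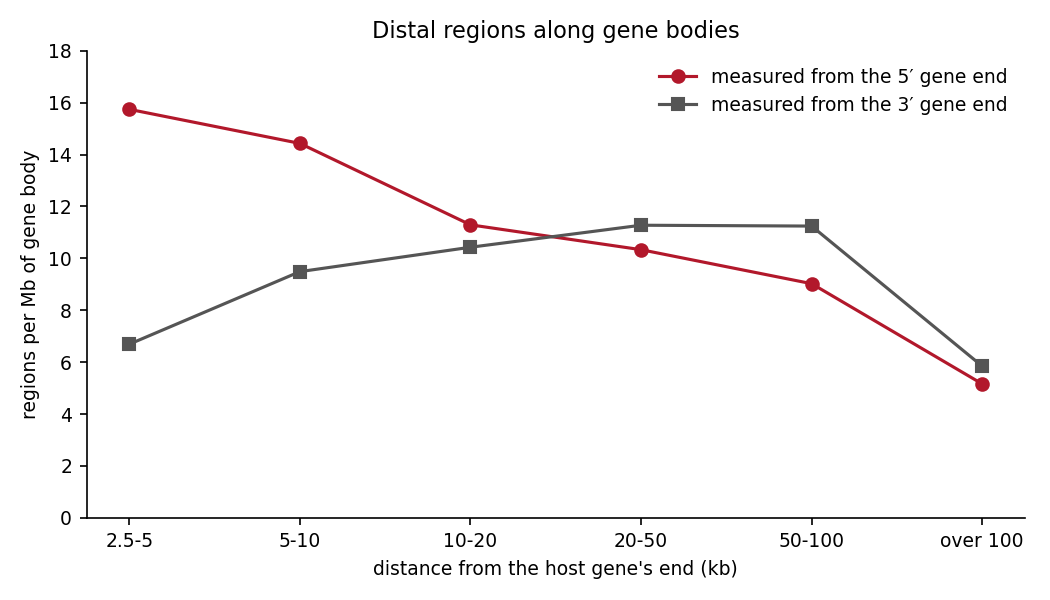
Shared distal regions per Mb of gene body more than 2.5 kb from every gene end (y), by distance from the 5′ (red) or 3′ (grey) end of the host gene in kb (x). Density falls from 15.7 to 5.16 per Mb with distance from the 5′ end, and near the 3′ end it is lowest in the closest bin, 6.69 per Mb, apart from the bin over 100 kb. That bin is reached only by genes longer than 100 kb and is low from either end, at 5.85 per Mb from the 3′ end.

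Chromosome X held few of the regions. It had 124, or 3.01 per Mb of eligible gene body, while the autosomes ranged from 7.45 per Mb on chromosome 14 to 10.7 on chromosome 10. On X, 11.5% of the genes that could hold a region did so, against 21.5% on autosomes, and 33.8% had a shared peak at a gene end against 51.2%. Chromosome Y held 2. The sex of the mice is not given, and its part in the low count on X was not tested.

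The 10 genes with most regions were all long. Sash1, a signalling scaffold, held 27 regions over 185 kb, with heights of 4.60 to 29.1-fold in replicate 2 and 4.97 to 53.7-fold in replicate 3. Fmnl2, a formin that elongates actin filaments, held 25 with heights up to 32.5-fold and 64.9-fold. The cAMP phosphodiesterase gene Pde4d held 23, Pakap, which anchors protein kinase A, held 22, and Tcf4, a basic helix-loop-helix factor, held 21. Frmd4a held 19, and Nav1, Arhgap26 and Ptprm, a receptor phosphatase at cell contacts, each held 18. Bach2, a repressor best known from lymphocytes, held 17 with heights up to 28.8-fold and 72.0-fold. Lengths ranged from 223 kb for Sash1 to 1302 kb for Pde4d, so the density ran from 124 to 17.7 regions per Mb. Pde4d, Pakap and Frmd4a had no shared peak within 1 kb of a gene end, and the other 7 had one.

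Gene lists of endothelial biology held regions more often than genes at large, in counts that also follow length. In replicate 2 and replicate 3 the list medians ran from 8.54 to 10.3-fold and from 17.6 to 25.9-fold, around the 8.81-fold and 20.9-fold of all the regions. The lists were drawn up with earlier results of these data known.

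**Figure D4:**
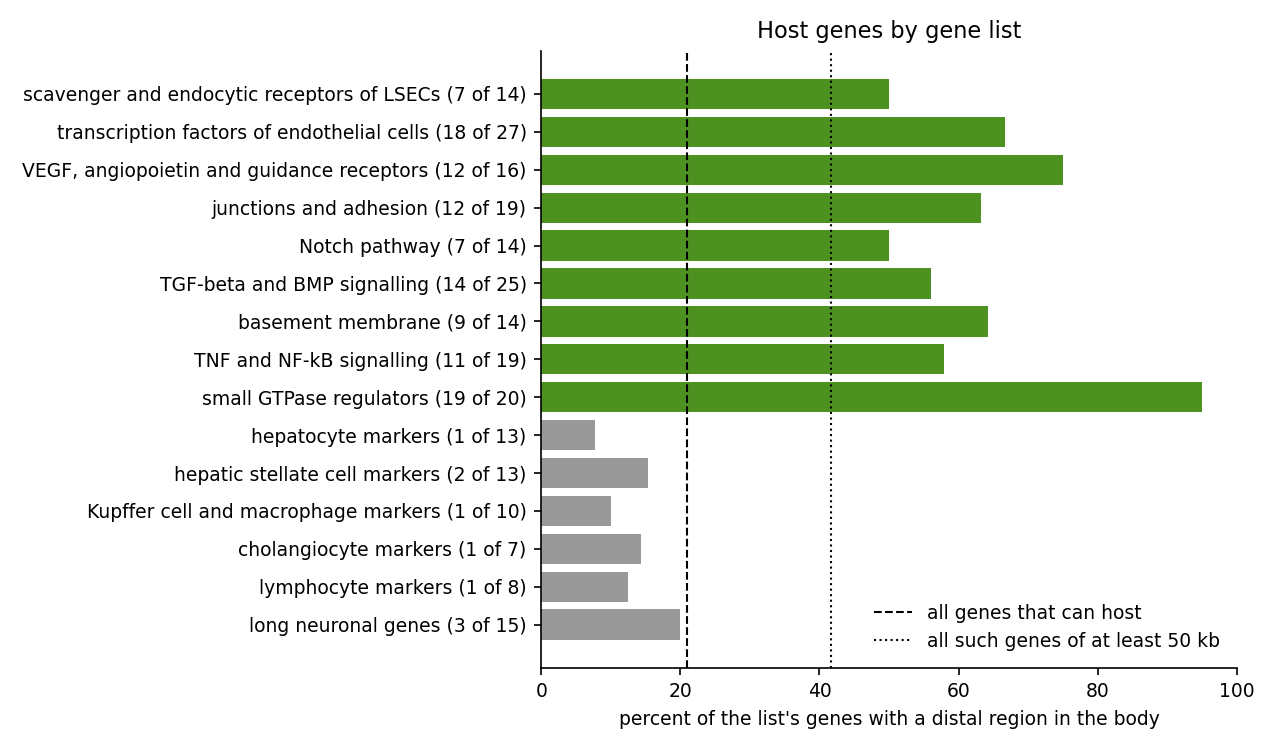
Percent of the genes in each list, among those that could hold one, with a shared distal region in the body (x). Green bars are endothelial and signalling lists, grey bars lists of other cell types. The dashed and dotted lines mark 21.0% for all genes that could hold one and 41.6% for those of 50 kb or longer. Green bars run from 50% to 95% and grey bars from 7.69% to 20%.

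Scavenger and endocytic receptors take up waste molecules from the blood, a main task of LSECs. Of 14 genes listed for this task, among them the adaptor gene Dab2, 7 held 25 regions, and 5 of the 7 that were 50 kb or longer did. The share of 50% rose to 78.6% with a limit of 1 kb from gene ends and to 92.9% with the peaks of replicate 3 alone. Dab2 held 8 regions on chromosome 15, with heights in replicate 2 of 31.9, 6.10, 26.4, 8.81, 8.25, 7.32, 24.4 and 6.78-fold from the first to the last along the chromosome. In replicate 3 the same regions stood at 83.5, 8.79, 76.5, 26.0, 16.5, 17.9, 37.7 and 9.08-fold. The first, the third and the seventh were the highest in both libraries, and the first, at chr15:6385970-6389077 and 3108 bp wide, holds the internal start shown above.

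Stab2, the hyaluronan scavenger receptor stabilin-2, held 6 regions of 4.58 to 12.2-fold in replicate 2 and 14.4 to 33.0-fold in replicate 3, the strongest at chr10:86940940-86941437. The mannose receptor gene Mrc1 held 4, at 9.49, 4.74, 12.9 and 27.1-fold in replicate 2 and at 12.4, 6.51, 28.0 and 52.1-fold in replicate 3. Both libraries thus put the fourth, at chr2:14278990-14279691, highest. Cd36 also held 4, of 8.13 to 21.0-fold and 14.7 to 43.3-fold. None of Dab2, Stab2, Mrc1 and Cd36 had a shared peak within 1 kb of a gene end. Lrp1 and Stab1 held 1 region each and had such a peak. In this list 3 of the 7 host genes had one, and 8 of all 14 genes did.

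Transcription factors of endothelial cells formed the list with most regions, 124 in 18 of the 27 genes that could hold one, or 45.5 per Mb against 8.64 per Mb of all eligible gene body. Of those of 50 kb or longer, 14 of 15 held a region. Ets1, an ETS factor of vessel growth, held 13 over chromosome 9. Its highest, at chr9:32695108-32696502 and chr9:32709476-32710623, stood at 26.4-fold and 23.0-fold in replicate 2 and at 52.8-fold and 62.8-fold in replicate 3. Erg, an ETS factor that maintains endothelial identity, held 11, of 5.41 to 17.4-fold and 8.06 to 36.5-fold. Of these, 9 lay close together between chr16:95415898 and chr16:95465007, and the widest spanned 2539 bp.

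Etv6 held 13 regions, Foxp1 16, Mef2c 9 and Elk3 8, and Gata4, the GATA factor that specifies LSECs against other capillaries, held 6. The heights in Gata4 were 7.44, 8.51, 11.5, 11.4, 11.6 and 7.46-fold in replicate 2 and 9.44, 22.3, 8.69, 23.2, 21.0 and 13.0-fold in replicate 3. The third was thus among the highest in replicate 2 and the lowest in replicate 3. Maf, a factor also linked to LSEC identity, spans 3.64 kb and was too short to hold a region under the distance limit. It had a shared peak at a gene end. Ets1, Erg and Mef2c had none at a gene end. Of the 18 host genes of the list 10 had one, and of all 30 listed genes 22 did, so here hosts had such a peak less often.

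The list of receptors for VEGF, angiopoietins and guidance cues followed with 59 regions in 12 of 16 genes, 56.6 per Mb. The list also took in other genes, such as Calcrl, Ptprb, Eng and the ligand gene Efnb2. Tek, the angiopoietin receptor TIE2, held 6. Their heights along chromosome 4 were 6.10, 33.9, 16.5, 27.8, 23.0 and 5.42-fold in replicate 2 and 17.9, 98.0, 35.8, 31.1, 33.2 and 17.9-fold in replicate 3. The second, at chr4:94746095-94747179, was the highest in both and lay 7009 bp inside the gene. Kdr, the main VEGF receptor of endothelium, held 7 of 5.71 to 13.5-fold and 5.42 to 35.9-fold in a gene of 46.2 kb, with the strongest at chr5:75955848-75956290 in both libraries. Nrp2 held 8, Nrp1 7, Flt1 6 and Ptprb, the vascular endothelial phosphatase, 6. Calcrl, the receptor for adrenomedullin, held 7, and one of them was the widest of all 8048, 4349 bp at chr2:84385982-84390330, at 20.3-fold in replicate 2 and 15.9-fold in replicate 3. It held 3 peaks of replicate 2 and 2 of replicate 3.

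Junction and adhesion genes held 50 regions in 12 of 19 genes. Cdh5, which encodes VE-cadherin, held 7 in 42.9 kb. They stood at 20.7, 36.0, 6.16, 34.1, 13.0, 18.3 and 6.98-fold in replicate 2 and at 54.0, 28.1, 7.72, 60.3, 31.3, 32.4 and 7.30-fold in replicate 3. The second was thus highest in replicate 2, where the fourth, at chr8:104121280-104122605, was highest in replicate 3. Tjp1 and Cgnl1, of tight junctions, held 9 each, Pecam1 held 6, and Jam2 and Ctnnd1 held 4 each.

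In the Notch pathway, 36 regions lay in 7 of 14 genes, most of them in the long coactivator genes Maml2, with 14, and Maml3, with 10. Notch1 held 5 of 6.78 to 16.9-fold and 11.2 to 43.8-fold, and Notch2 held 3 with the highest at 23.2-fold and 72.9-fold. Rbpj held 2 neighbouring regions, at 17.9-fold and 21.0-fold in replicate 2 and 61.4-fold and 53.4-fold in replicate 3. Numb and Jag1 held 1 each, of 6.10 and 6.78-fold in replicate 2.

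TGF-β and BMP signalling genes held 46 regions in 14 of 25 genes, all 14 with a shared peak at a gene end. Such a peak was common in the list as a whole, with 21 of the 25. Bmp6, the ligand by which LSECs set hepcidin in hepatocytes, held 8, the strongest 2763 bp wide at chr13:38349140-38351902 and 29.1-fold and 63.3-fold high. Smad3 held 7 of 4.09 to 22.4-fold and 5.27 to 69.0-fold, and the receptor genes Acvr1 and Tgfbr3 held 7 and 6. The inhibitory Smad6 and Smad7 held 3 and 2, and Smad1 held 3.

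Basement membrane genes held 34 regions in 9 of 14, or 64.3%. The share fell to 21.4% with the reciprocal overlap of 50% and was 92.9% with replicate 3 alone. Col4a1 and Col4a2, neighbours on chromosome 8 that encode the main chains of collagen IV, held 6 and 8. The heights in Col4a1 were 6.78, 16.9, 19.0, 10.8, 16.3 and 7.86-fold in replicate 2 and 17.6, 35.8, 34.4, 18.9, 18.3 and 21.2-fold in replicate 3. The second and the third, chr8:11258244-11259262 and chr8:11259719-11260306, were the highest in both libraries. In Col4a2 the highest was at chr8:11340218-11340927, 18.3-fold and 41.0-fold. Hspg2, which encodes perlecan, held 7, the laminin gene Lama4 6 and Lamc1 3. Sparc held 1, of 25.8-fold and 77.1-fold.

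TNF and NF-κB signalling genes were mostly short and held 22 regions in 11 of 19 genes. Of all 20 listed, these were 55%, which fell to 30% with the reciprocal overlap. Nfkb1 held 7 of 4.09 to 13.4-fold and 9.77 to 36.1-fold. Nfkbiz and Traf1 held 3 each and Tnip1 2, and the region in Tnfrsf1a, a TNF receptor gene of 12.8 kb, was 2604 bp wide at 27.2-fold and 28.4-fold. The region in Nfkb2, at 23.7-fold and 65.5-fold, held 3 annotated internal starts. Regulators of small GTPases, which shape the endothelial cytoskeleton, were long genes with a median of 131 kb. Of 20, 19 held 115 regions, including all 18 of 50 kb or longer, with Dock4 at 14, Rapgef2 at 13, Plekhg1 at 12 and Rapgef5 at 10. The highest in replicate 2 lay in Dock4 at chr12:40568687-40570606, 32.5-fold and 66.7-fold, and the highest in replicate 3 in Rapgef5 at chr12:117750921-117752312, 29.8-fold and 77.9-fold.

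Markers of other cell types were hosts in 7.69% to 20% of cases by list, against 21.0% of all genes that could hold a region. Hepatocyte and cholangiocyte genes were short, with median lengths of 14.7 kb and 15.1 kb, and their shares of 7.69% and 14.3%, 1 host each, stood on either side of the 9.94% of all genes of 10 to 20 kb. Among 13 hepatocyte genes only Hnf4a held one, of 4.74-fold and 22.1-fold. Among 13 stellate cell genes Pdgfra held 2, both of 6.10-fold in replicate 2 and of 22.1-fold and 13.4-fold in replicate 3, and Acta2 held 1 of 8.13-fold and 28.0-fold. Among 10 Kupffer cell and macrophage genes Csf1r held 1, of 17.6-fold and 32.7-fold, and among 7 cholangiocyte genes Cftr held 2 of 7.93 to 8.13-fold and 11.5 to 18.3-fold. Of 8 lymphocyte genes Bach2, described above, was the host, and its 17 regions brought that list to 37.4 per Mb against 8.64 per Mb of all eligible gene body. Of 15 long neuronal genes with a median of 1448 kb, Nrxn3 held 2 and Ptprd and Dlg2 1 each, 0.181 per Mb in all, with heights of 5.42 to 7.46-fold and 5.02 to 18.9-fold. Of all genes of 200 kb or longer, 47.8% were hosts. With replicate 3 alone 53.3% of the neuronal and 35.7% of the stellate cell genes listed were hosts, and with the reciprocal overlap no hepatocyte or stellate cell gene was. Shared peaks at gene ends were found for 2 hepatocyte, 2 Kupffer cell, 2 lymphocyte and no stellate cell or cholangiocyte gene. The part that other cells in the preparation may have in these regions was not tested.

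Regions at an internal transcript start were taller and wider in the median than the others. The promoter table gave no gene of chromosome 18. Of the 6398 regions whose host gene was in the table, 566 (8.85%) held at least 1 internal start. Their median heights were 12.9-fold and 36.1-fold, with 5th and 95th percentiles of 6.09 and 33.2 in replicate 2 and of 10.8 and 96.3 in replicate 3. The other 5832 had medians of 8.79-fold and 20.1-fold, with percentiles of 5.31 and 23.0 and of 7.04 and 58.9. The median widths were 933 bp and 558 bp, and 44.7% against 12.9% were 1 kb or wider. The ranges overlapped. The 6533 regions that held a start at a gene end had medians of 16.3-fold, 47.5-fold and 1007 bp, above those at internal starts. When the regions were ranked by the lower value of the libraries and cut into 10 groups of like size, the strongest group held an internal start in 21.8% of cases and the weakest in 3.71%. A region was counted when it held the start, so a wider region had more room to hold one. Regions were not matched in width, and the part of width in these differences and shares was not tested.

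**Figure D5:**
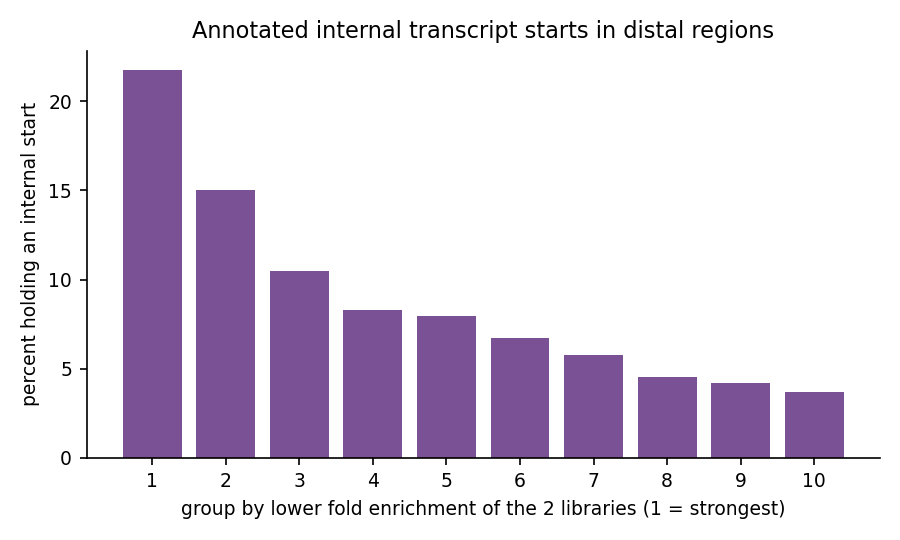
Percent of shared distal regions that held an annotated internal transcript start (y) in 10 groups ranked by the lower fold enrichment of the libraries (x, 1 for the strongest), over the 6398 regions with a host gene in the promoter table. The share falls from 21.8% in the first group to 3.71% in the last. The groups were not matched in width, and a wider region has more room to hold a start.

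These starts belonged to 547 genes, of which 189 (34.6%) also had a shared peak within 1 kb of the 5′ end of the gene. Among 1494 genes with an internal start outside every peak, 448 (29.99%) had one. Host genes without a shared peak at either end often had their mark at such a start: 344 of the 1013 in the table (34.0%) held an internal start of their own inside a region, against 203 of 1802 host genes (11.3%) with a peak at an end. Dab2, Erg, Mef2c, Cd36 and Rbpj were among those without a peak at an end.

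The 8 regions with the highest lower value of the libraries lay in Hdac4, Bcr, Diaph1, Bicdl1, Ipo5, Stk25, Por and Dcun1d4, and those in Camk2d, Edem1, Fbxo46 and Ttc7b tied next at 43.4-fold. The region in Hdac4, at chr1:92179675-92181309, stood at 55.6-fold and 114-fold, and that in Bcr, a regulator of small GTPases, at 50.8-fold and 105-fold at chr10:75169955-75171194. Of these 12, those in Hdac4, Ipo5, Stk25, Por, Dcun1d4 and Edem1 held an internal start. The others in the table did not, and Diaph1 on chromosome 18 could not be looked up. The tallest value of replicate 3, 164-fold, belonged to the region in Rps6ka2, which stood at 42.7-fold in replicate 2. Next in width to Calcrl were regions in Abi1 (4111 bp), Riok3 (3870 bp), Ampd3 (3858 bp) and Kdm6b (3793 bp). Those in Calcrl, Abi1, Ampd3 and Kdm6b held no internal start, and Riok3 could not be looked up.

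The libraries differed most in Add3, at 5.42-fold in replicate 2 and 43.6-fold in replicate 3, a ratio of 8.05. Npcd, Trpm3, Asap1 and Hgsnat followed with ratios of 7.66, 7.58, 7.45 and 7.41. At the other end was a region in Tcf4, of 6.76-fold and 2.89-fold, a ratio of 0.427 with summits 459 bp apart. Ltbp4, Mtus1, Phf2 and Iffo1 followed with ratios of 0.453 to 0.521. All 10 of these regions were at 13.6-fold or less in replicate 2.

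Of 1005 microRNA hairpins in the RefSeq table, 6 (0.597%) overlapped a shared distal region, and 20 lay within 1 kb of one. The regions covered 0.598% of the bases of eligible gene body. The shares are not like for like, as hairpins were not limited to eligible gene body and any overlap counted. One of the 6 overlapping hairpins was Mir199a-2 within Dnm3, at chr1:162217814-162217923 on the plus strand, in a region of 6.76-fold and 19.5-fold. Its mature arms are shown with the seed, bases 2 to 8, in capitals, since the seed sets which transcripts a microRNA binds.
mmu-miR-199a-5p: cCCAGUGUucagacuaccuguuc
mmu-miR-199a-3p: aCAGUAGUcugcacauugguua
The others were Mir3092 in Fndc3b, Mir1905 in Mex3a, Mir1895 in Cxxc4, Mir6398 in Macf1 and Mir6391 in Abcc4. The highest of these regions, in Fndc3b, stood at 15.6-fold and 44.3-fold. The overlap is one of position, and no RNA was measured in these samples.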

How the data were processed

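The authors deposited 1 peak list for each H3K27ac library of mouse LSECs. Per the submitters' processing notes, cutadapt 0.4.4, BWA 0.7.17, Picard 1.67, MACS2 2.0.10 and bedtools 2.27.1 were used with the build mm10 (GRCm38). The roles of the tools, whether the inputs served as control and the read numbers are not given in the sources used here. The study's methods describe tagmentation, while the labels describe sonication and a ligation kit. In each deposited list the columns hold a score, the fold enrichment at the summit as a ratio, and −log10 of the p-value and of the q-value, with a minimum of 2.01 for the latter.

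From these lists, peaks were merged where they overlapped by at least 1 bp and classed against the RefSeq gene table of GRCm38.p6, without 113 protein-coding genes of unplaced scaffolds or alternate loci. This changed no region. A gene runs from the first to the last base of its annotated transcripts, so exons, introns and UTRs were not told apart. Strand and transcript starts came from RefSeq promoter windows of 250 bases before and 50 after each start. The members, gene lists and comparisons were chosen with earlier results of these data known. The letters searched in promoter windows, in place of peak sequences, were chosen after seeing the data. A genome sequence was not used here, so motifs in the regions were not searched.

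The genes named were the 10 with most regions, the hosts of the 10 strongest (12 with ties), 5 widest and 5 most and 5 least unequal regions, up to 6 leading genes of each list, all hosts among markers of other cell types, and the regions nearest the distance limit. Some genes that meet these rules are not reported here. Genes named beyond these were chosen after their values were seen. With 1 condition and 2 libraries no test was made, p-values are not given, and intervals were not computed for single heights because depth is unknown. The labels do not say that the libraries came from separate mice, so differences between them may be technical. The work ran in Python 3.11.15 with pandas 2.3.3 and numpy 2.4.6 for tables, scipy 1.17.1 for binomial limits and matplotlib 3.10.9 for plots, and the classing was tested on simulated peaks.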

Additional observations from a re-analysis of the deposited data

How the results depend on the processing

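Of 226 recomputed values, 180 stayed within the limits, a factor of 1.5 for counts and the 95% binomial limits of the reported share or median for the others. Of the 226, 150 were shares of short gene lists, of which 16 moved. Their limits are wide, such as 26.8% to 73.2% for scavenger receptors, so staying within them says little. The limits also treat regions and genes as independent, which they are not, so the tally does not measure stability. The rule that the whole region lie in the gene body gave the values reported, as the distance limit already requires it. Demanding a reciprocal overlap of 50% gave 4142 regions in 2316 genes, 56.4% of shared distal regions, a width of 522 bp and heights of 10.2-fold and 22.5-fold, and the share of host genes with a peak at an end was 30.1%. A q-value of 1e-05 or less gave 604 bp, 9.49-fold, 22.8-fold, summits 30 bp apart and 61.6%, and the 26975 strongest peaks of each library gave 626 bp, 9.76-fold, 24.1-fold, 30 bp and 61.9%. Distance from all annotated genes raised the intragenic share to 63.1%. Leaving out regions at annotated transcript starts, chosen after seeing the data, left 7482 regions. These were 54.7% of all 13673 shared distal regions, as that total and the regions between genes were not filtered in this way. Their median width was 561 bp (560.5), their median height in replicate 3 was 20.3-fold, and 65.7% of their host genes had a peak at an end.

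With 1 library at a time, the count ran from 8856 (replicate 2 alone) to 26568 (replicate 3 alone), host genes from 3620 to 6825, the intragenic share from 59.0% to 60.1%, the width from 277 to 309 bp and the share with a peak at a gene end from 62.3% to 75.6%. Heights were 8.63-fold in replicate 2 alone and 7.83-fold in replicate 3 alone. Shares of all listed genes that were hosts ran from 64.3% to 92.9% for scavenger receptors and for basement membrane, 70.6% to 94.1% for VEGF and guidance receptors, 65% to 85% for junctions, 60% to 80% for TGF-β and BMP, 55% to 80% for TNF and NF-κB, 95% to 100% for small GTPase regulators, and 26.7% to 53.3% for long neuronal genes. Under other settings, scavenger receptors reached 78.6% at more than 1 kb from gene ends. With reciprocal overlap, basement membrane fell to 21.4% and TNF and NF-κB to 30%, and hepatocyte and stellate cell markers were at 0%. Hepatocyte markers were also at 0% with the stricter q-value, and Kupffer cell markers at 0% at more than 5 kb and with all annotated genes. What lies behind these shifts was not tested.

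No paired analysis was possible because no result came from a test. The motif search around summits was not run. Depth is unknown, so a region missing from replicate 2 is not shown to lack the mark.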
